A study of Mus musculus with 4 samples.

Results

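6 genes of zinc handling were followed in mouse muscle: the metallothioneins Mt1, Mt2 and Mt3, the zinc-sensing transcription factor Mtf1, the zinc exporter Slc30a1 and the zinc importer Slc39a14. They were taken by name from a table of 33923 gene symbols, and each of the 6 symbols stood on 1 row. The 6 were chosen with earlier results of the same genotype comparison known, so their own values are given below as a description, without a test. RNA was measured in 2 genotype groups, called MCK-TD (libraries A and B) and Con-TD (libraries F and G). Both groups were C57BL/6 mice under conventional husbandry, and the tissue of both is labelled GTN muscle. The labels do not expand these names, name no altered allele or promoter, give no age and do not say whether the libraries of a group came from separate mice. For that reason, p-values here speak only to the scatter among these 4 libraries, and that scatter may be technical.

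Metallothioneins are small, cysteine-rich proteins that bind zinc and copper and buffer their free concentration in the cell. When free zinc rises, MTF1 enters the nucleus and binds metal response elements in the promoters of Mt1, Mt2 and Slc30a1, so that zinc is bound by metallothionein or exported. Mt1 and Mt2 are expressed in most tissues and are also induced by glucocorticoids, by inflammatory cytokines and by oxidants. Mt3 is known mainly from the brain. SLC39A14 carries zinc, iron and manganese into the cell and is known as an acute-phase gene that interleukin-6 induces in liver.

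The promoters of Mt1, Mt2, Mt3 and Slc30a1 are shown because MTF1 is known to act through such sequences and because these genes differed widely in their change. Each run is the 250 bases before the gene's start, 5′ to 3′ on the plus strand, from RefSeq on the build GRCm38.p6. Capitals mark the core of the metal response element, searched as TGCACNC or TGCGCNC on both strands. The Mt1 window is chr8:94178839-94179088, that of Mt2 chr8:94172368-94172617, that of Mt3 chr8:94152357-94152606 and that of Slc30a1 chr1:191906531-191906780.
Mt1: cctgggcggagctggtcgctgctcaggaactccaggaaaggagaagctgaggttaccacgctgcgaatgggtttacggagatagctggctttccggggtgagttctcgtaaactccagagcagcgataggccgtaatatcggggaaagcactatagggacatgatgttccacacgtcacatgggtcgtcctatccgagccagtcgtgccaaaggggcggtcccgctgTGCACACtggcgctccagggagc
Mt2: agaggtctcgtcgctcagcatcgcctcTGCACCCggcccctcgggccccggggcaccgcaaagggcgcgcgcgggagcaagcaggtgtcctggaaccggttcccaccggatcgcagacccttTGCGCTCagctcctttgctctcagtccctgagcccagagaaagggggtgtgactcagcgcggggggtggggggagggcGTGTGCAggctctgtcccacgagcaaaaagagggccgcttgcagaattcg
Mt3: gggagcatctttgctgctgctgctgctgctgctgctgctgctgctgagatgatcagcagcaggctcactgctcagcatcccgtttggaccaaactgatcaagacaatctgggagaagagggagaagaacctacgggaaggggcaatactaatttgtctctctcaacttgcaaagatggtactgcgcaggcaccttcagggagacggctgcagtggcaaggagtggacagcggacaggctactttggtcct
Slc30a1: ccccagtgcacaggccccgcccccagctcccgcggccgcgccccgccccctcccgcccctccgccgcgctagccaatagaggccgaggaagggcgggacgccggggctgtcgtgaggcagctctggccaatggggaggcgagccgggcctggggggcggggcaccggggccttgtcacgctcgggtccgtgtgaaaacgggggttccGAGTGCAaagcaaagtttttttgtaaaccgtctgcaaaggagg
The 250 bases held 3 cores in Mt2, 1 in Mt1, 1 in Slc30a1 and none in Mt3 or Mtf1. Among all 32851 promoter windows of the same length, 21.4% held at least 1 core and 1.26% held at least 3. The 50 bases after the start held 2 further cores in Mt1 and 1 each in Mt2, Mt3 and Slc30a1. The antioxidant response element core, searched as TGACNNNGC on both strands, occurred once in Mt2 and once in Slc30a1, without overlap with a metal response core, and in 10.2% of all windows. The E-box CACGTG was in none of these windows and in 6.02% of all. Only 300 bases around a single start per gene were searched, so cores further off or near another start would be missed. The counts therefore do not rank the genes by all their metal response elements. These matches describe letters in a window and do not show binding.

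All 6 genes were higher in both MCK-TD libraries than in both Con-TD libraries, as were 50.7% of the 12474 rows with a mean of at least 1 FPKM. In either direction the groups did not overlap in 72% of those rows. FPKM scales fragment counts by transcript length and by the mapped fragments of the library, which puts different genes on a common scale. How well it does so for genes of unlike length was not tested. The longest GENCODE M21 transcript has 511 bases for Mt2 and 7631 for Mtf1, so orders of level between genes are approximate. Mt3 changed most, 46.2-fold, Mt2, Slc39a14, Mtf1 and Mt1 differed by 1.74- to 2.42-fold, and Slc30a1 by 1.32-fold. The limma test over all rows called 3 of the 6 higher at an adjusted p under 0.05, and none lower, where 24.3% of all rows were called higher and 6.45% lower. Since this contrast was used to choose the genes, nothing is read from either count.

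Mt3 was listed at 38.0 and 56.6 FPKM in MCK-TD A and B, against 1.12 and 0.931 FPKM in Con-TD F and G. Both MCK-TD libraries stood far above both Con-TD libraries, which lay close together near 1 FPKM. The log2 change, on the scale of log2(FPKM + 1), was 4.55 with a standard error of 0.22, and single pairs of an MCK-TD and a Con-TD library gave 4.20 to 4.90. By this change Mt3 stood at position 19 of the 12474 rows.

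Mt2 was at 472 and 608 FPKM in MCK-TD A and B, against 335 and 110 FPKM in Con-TD F and G. Mt1 was at 315 and 334 FPKM in MCK-TD A and B, against 266 and 106 FPKM in Con-TD F and G. For both genes the Con-TD libraries stood further apart than MCK-TD A and Con-TD F did. The log2 change was 1.47 for Mt2 (SE 0.57) and 0.94 for Mt1 (SE 0.46). It rested on which Con-TD library was used: without Con-TD F it was 2.27 for Mt2 and 1.60 for Mt1, and without Con-TD G it was 0.67 for Mt2 and 0.28 for Mt1.

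Mtf1, the transcription factor, was at 3.92 and 4.60 FPKM in MCK-TD A and B, against 2.34 and 2.02 FPKM in Con-TD F and G. Its log2 change was 0.72 (SE 0.14). Mtf1 overlaps 1110065P20Rik on the opposite strand in GENCODE M21, which was also higher, at 21.3 and 16.9 FPKM in MCK-TD A and B, against 10.4 and 11.5 FPKM in Con-TD F and G. Of all 50-base windows in the Mtf1 transcripts, 7.78% also lay in 1110065P20Rik. Without strand, reads of the overlap cannot be told apart.

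Slc39a14, the importer, was at 3.76 and 3.98 FPKM in MCK-TD A and B, against 1.73 and 1.56 FPKM in Con-TD F and G. Within each group the libraries lay close together, and the log2 change was 0.88 (SE 0.13). Slc30a1, the exporter of the plasma membrane, was at 1.503 and 1.37 FPKM in MCK-TD A and B, against 0.973 and 1.21 FPKM in Con-TD F and G. Its log2 change of 0.22 (SE 0.16) equalled the median of all rows tested, also 0.22, and was -0.015 with quantile normalization. It was the smallest change of the 6 genes.

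**Figure D1:**
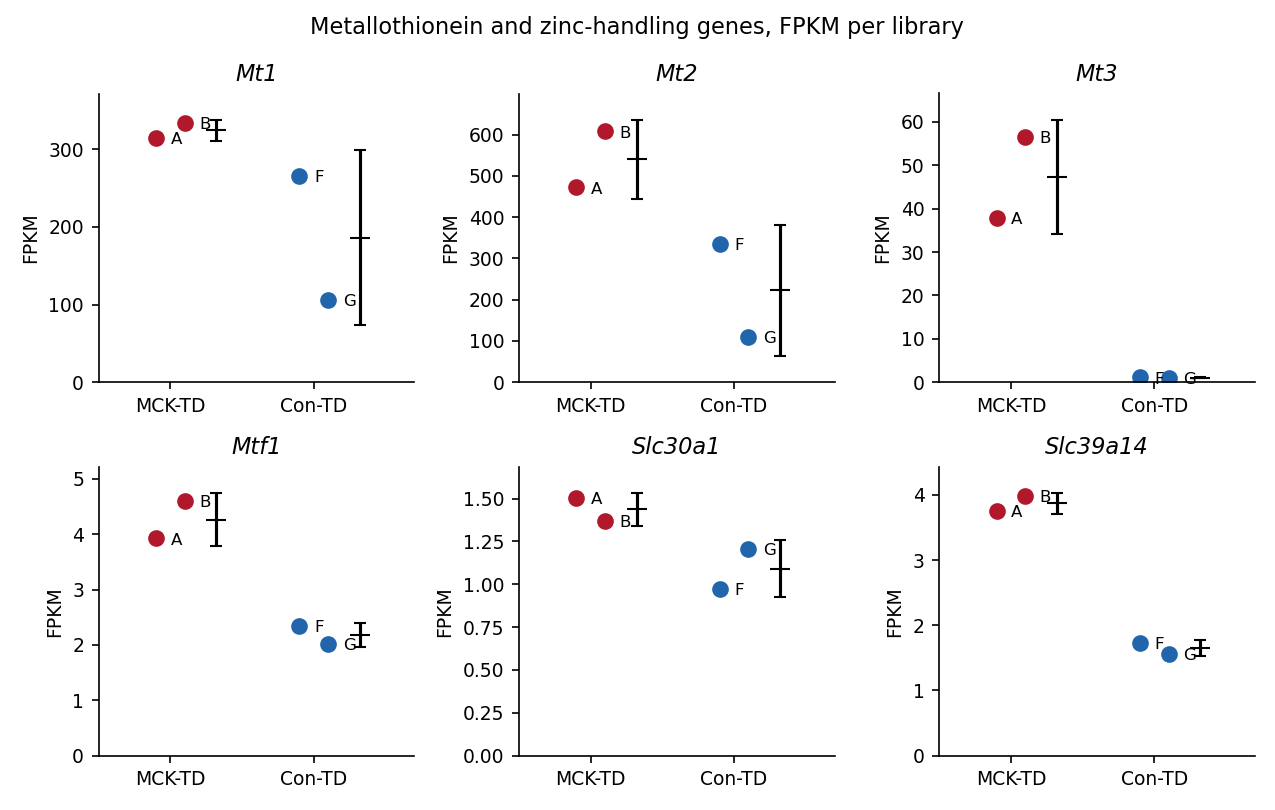
FPKM (y axis, linear from 0) of the 6 genes in MCK-TD libraries A and B (red, left) and Con-TD libraries F and G (blue, right), with the mean and SD of each group in black (n = 2). Con-TD F lies near the MCK-TD libraries for Mt1 and Mt2, while Mt3 is near 1 FPKM in both Con-TD libraries and at 38.0 and 56.6 FPKM in the MCK-TD libraries.

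The order of levels differed between the genotypes in the place of Mt3. In MCK-TD it ran from Mt2 (540 ± 96.1 FPKM, SD, n = 2) to Mt1 (325 ± 13.5), Mt3 (47.3 ± 13.2), Mtf1 (4.26 ± 0.477), Slc39a14 (3.87 ± 0.157) and Slc30a1 (1.44 ± 0.0946). The ranges of Mtf1 and Slc39a14 overlapped there, though Mtf1 was the higher within each MCK-TD library. In Con-TD it ran from Mt2 (223 ± 159 FPKM) to Mt1 (186 ± 113), Mtf1 (2.18 ± 0.222), Slc39a14 (1.65 ± 0.122), Slc30a1 (1.09 ± 0.166) and Mt3 (1.02 ± 0.132). There the ranges of Mt2 and Mt1 overlapped, though Mt2 was the higher within each Con-TD library. The ranges of Slc30a1 and Mt3 overlapped too, and their order differed between Con-TD F and G.

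Mt1, Mt2 and Mt3 together summed to 825 and 999 FPKM in MCK-TD A and B, against 603 and 218 FPKM in Con-TD F and G. Mt3 made up 4.60% and 5.67% of this sum in MCK-TD A and B, against 0.186% and 0.428% in Con-TD F and G. Mt2 made up 57.2% and 60.9% of the sum in MCK-TD A and B, against 55.7% and 50.7% in Con-TD F and G. Mt1 and Mt2 thus supplied nearly all metallothionein transcript in every library, and the shares of Mt3 and of Mt2 were higher in each MCK-TD library than in each Con-TD library. For Mt2 the separation was small, since the share in Con-TD F lay closer to that in MCK-TD A than to that in Con-TD G.

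Reads of the 3 metallothioneins could be told apart by sequence in principle. Of all 50-base windows in their GENCODE M21 transcripts (1292 for Mt1, 554 for Mt2, 1065 for Mt3), none of Mt1 or Mt3 occurred in a transcript of another gene. Of the Mt2 windows 45.8% lay in Gm45774, an antisense RNA annotated across Mt2, which has no row of that name in the table. Of the Slc30a1 windows 8.01% lay in the antisense 1700034H15Rik, at 0.0110 and 0.0220 FPKM in MCK-TD A and B, against 0.0992 and 0.106 FPKM in Con-TD F and G. Reads on opposite strands of these overlaps cannot be separated without strand.

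The tissue was bulk muscle, so fewer cells of a type and less RNA per cell cannot be told apart. Markers of mature fibres summed to 99319 and 130275 FPKM in MCK-TD A and B, against 173582 and 161221 FPKM in Con-TD F and G, abundant in every library, and 9 of the 11 fell, where 6.45% of all rows were called lower. Of 9 macrophage markers tested 6 rose, where 24.3% of all rows were called higher, and the 11 in the table summed to 193 and 159 FPKM in MCK-TD A and B, against 35.6 and 51.4 FPKM in Con-TD F and G. Glial and Schwann cell markers summed to 8.24 and 13.3 FPKM in MCK-TD A and B, against 26.9 and 37.9 FPKM in Con-TD F and G, and the 7 neuronal markers to 1.43 and 2.03 FPKM in MCK-TD A and B, against 0.768 and 0.773 FPKM in Con-TD F and G. No neuronal marker reached the level to be tested. Of the 7, Tubb3 was at 0.532 and 1.22 FPKM in MCK-TD A and B, against 0.115 and 0.111 FPKM in Con-TD F and G. The other 6 neuronal markers were each under 1 FPKM in every library. The 7 hepatocyte markers were each under 1 FPKM in every library. The part of macrophages, nerve cells and other cells in the metallothionein levels was not tested.

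**Figure D2:**
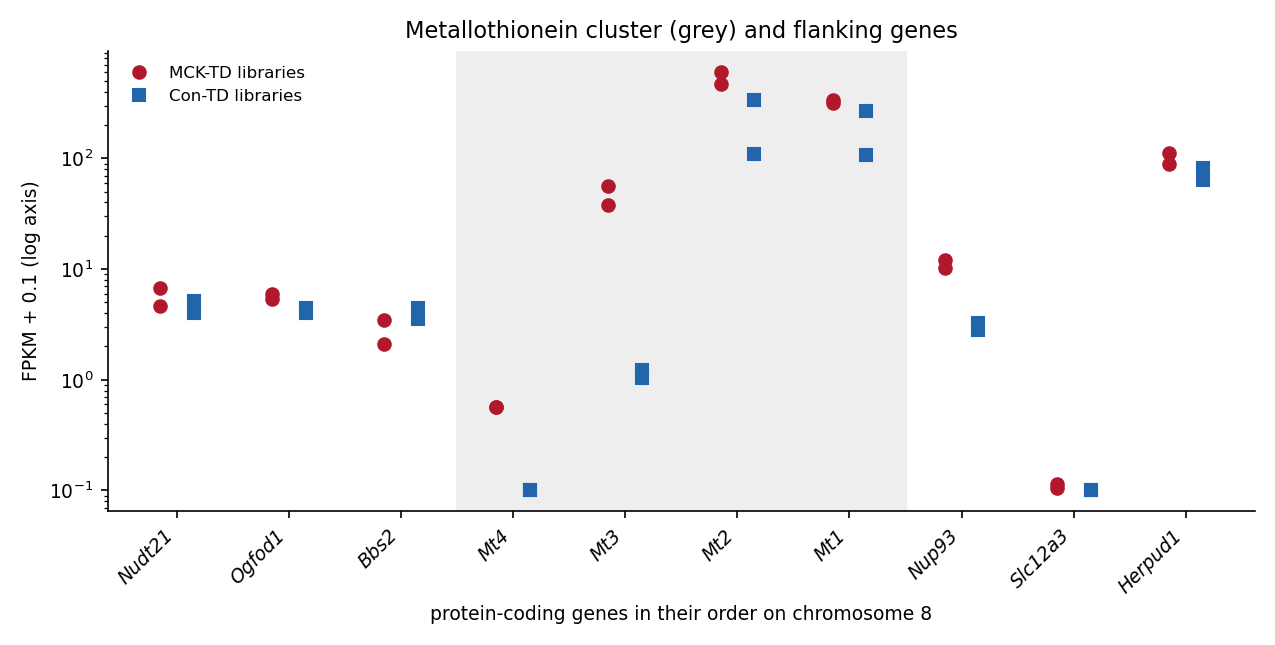
FPKM + 0.1 (y axis, log) of the protein-coding genes around the metallothionein cluster in their RefSeq order on chromosome 8 (x axis), in MCK-TD libraries (red circles) and Con-TD libraries (blue squares), with the cluster in grey. Mt3 and Nup93 stand clearly higher in MCK-TD, while the 3 genes on the Mt4 side lie close together in both groups.

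The metallothionein genes lie side by side on chromosome 8, in the order Mt4, Mt3, Mt2 and Mt1, with Bbs2 beyond Mt4 and Nup93 beyond Mt1 (RefSeq order, GRCm38.p6). Mt4, the fourth gene of the cluster, known from stratified epithelia, was listed at 0.464 and 0.469 FPKM in MCK-TD A and B, and at 0 in both Con-TD libraries, too low to be tested. The flanking genes were chosen by position, 3 protein-coding genes on each side, after the values of the 6 genes were seen. On the Mt4 side none of Bbs2, Ogfod1 and Nudt21 was called by limma at an adjusted p under 0.05 (adjusted p of 0.0910 to 0.405). Ogfod1 alone was under 0.05 unadjusted, as were 5659 of the 12474 rows. On the Mt1 side, Nup93, a nuclear pore subunit, rose to 10.1 and 12.1 FPKM in MCK-TD A and B, against 2.71 and 3.14 FPKM in Con-TD F and G (log2 change 1.62, SE 0.14, limma adjusted p = 0.00835). Herpud1, a gene of the endoplasmic reticulum stress response, was not called (log2 change 0.47, SE 0.18, limma adjusted p = 0.121), and Slc12a3, at under 0.1 FPKM in every library, was not tested.

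Mt1 and Mt2 varied between the Con-TD libraries more than the other 4 genes. Con-TD F exceeded Con-TD G 2.50-fold for Mt1 and 3.04-fold for Mt2, differences that stood at positions 139 and 120 of the 12474 rows. The ratio of Con-TD F to Con-TD G was 1.20 for Mt3, 1.16 for Mtf1, 1.11 for Slc39a14 and 0.806 for Slc30a1. Over all rows, 42.4% were higher in Con-TD F and 6.2% were higher by at least 1.5-fold. Of 12 listed genes of the glucocorticoid response, which are induced targets and the receptor gene Nr3c1, all 12 were higher in Con-TD F and 4 by at least 1.5-fold. Of 12 tested genes of interleukin-6 signalling and the acute phase, 10 were higher in Con-TD F and 6 by at least 1.5-fold. Cebpd, an acute-phase transcription factor, was at 53.3 and 41.2 FPKM in MCK-TD A and B, against 54.7 FPKM in Con-TD F and 24.6 in Con-TD G. Fkbp5, a glucocorticoid receptor co-chaperone named after its values were seen, was at 18.6 and 22.1 FPKM in MCK-TD A and B, against 13.2 FPKM in Con-TD F and 6.51 in Con-TD G. Of the other listed glucocorticoid genes, Tsc22d3 and Pdk4 were also higher in both MCK-TD libraries and lowest in Con-TD G. Klf9, Klf15, Dusp1 and Nr3c1 were instead lower in both MCK-TD libraries than in both Con-TD libraries. For Per1, Zbtb16, Sgk1, Errfi1 and Ddit4 the groups overlapped. Neutrophil markers summed to 11.6 and 11.6 FPKM in MCK-TD A and B, against 19.3 and 6.79 FPKM in Con-TD F and G, and all 3 of those tested were at least 1.5-fold higher in Con-TD F. Markers of other cells differed the opposite way: adipocyte markers summed to 14.5 and 19.9 FPKM in MCK-TD A and B, against 40.7 and 145 FPKM in Con-TD F and G. Erythroid markers summed to 3026 and 1853 FPKM in MCK-TD A and B, against 1352 and 5109 FPKM in Con-TD F and G. The part of these differences in the Mt1 and Mt2 levels was not tested.

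**Figure D3:**
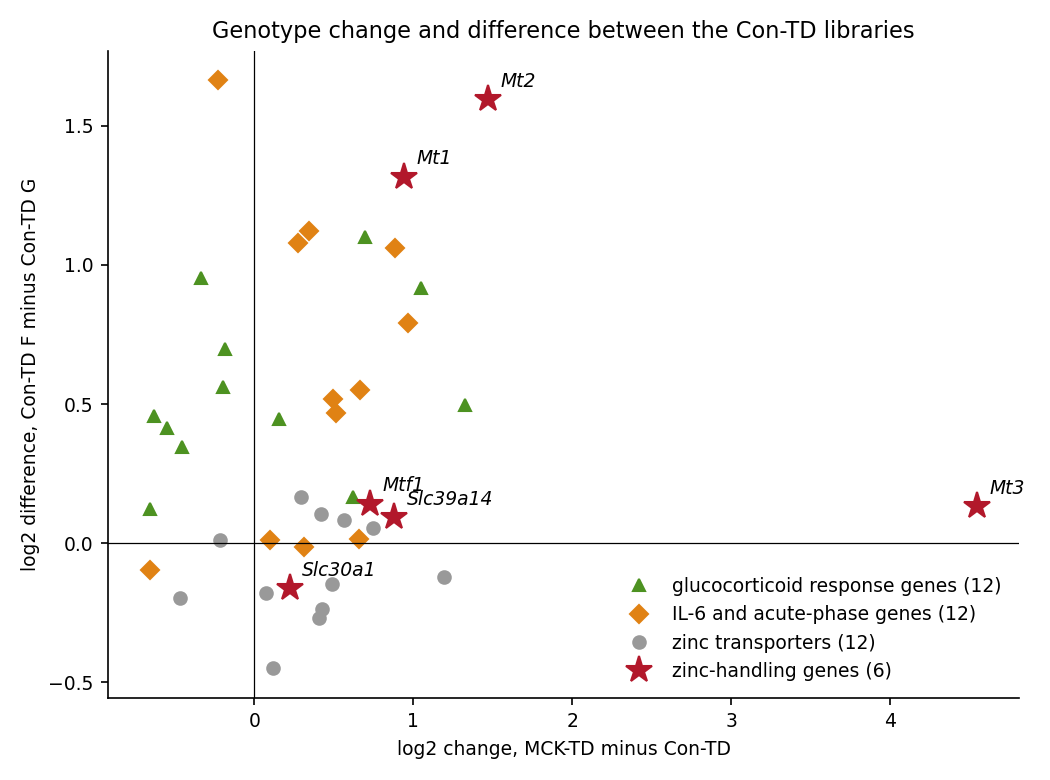
Difference between Con-TD F and Con-TD G (y axis, log2) against the change of MCK-TD minus Con-TD (x axis, log2) for the 6 genes (red stars) and for tested genes of 3 lists. Mt1 and Mt2 lie in the upper part, above the glucocorticoid genes and above the interleukin-6 genes other than Lcn2. Mt3 lies far to the right at a small difference between the Con-TD libraries.

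Between the genotypes, 2 of the 12 glucocorticoid response genes rose and 1, the receptor gene Nr3c1, fell. These calls made up 25.0% of the list, near the 30.8% of all rows called. The median log2 change of the list was -0.19 against 0.22 over all rows, but 0.15 without Con-TD F and -0.51 without Con-TD G. It was -0.44 after median of ratios scaling and -0.43 after quantile normalization, where all rows had medians of 0.01 and -0.05. Pdk4, a kinase that restrains pyruvate oxidation, rose to 180 and 178 FPKM in MCK-TD A and B, against 84.4 and 59.5 FPKM in Con-TD F and G (log2 change 1.32, SE 0.19, limma adjusted p = 0.0164). Tsc22d3, which encodes the glucocorticoid-induced leucine zipper, rose by 0.62 on the log2 scale (SE 0.12, limma adjusted p = 0.0299), a call lost with each of the other 3 scalings. Nr3c1, the glucocorticoid receptor itself, fell to 12.04 and 12.5 FPKM in MCK-TD A and B, against 20.8 and 19.1 FPKM in Con-TD F and G (limma adjusted p = 0.0183). Sgk1, Dusp1, Klf9 and Ddit4 were not called, with log2 changes between -0.63 and 0.70. Of the 12 interleukin-6 and acute-phase genes 1 rose and 1 fell, which is 16.7% called against 30.8% of all rows. Their median log2 change was 0.42, but 0.75 without Con-TD F and 0.26 without Con-TD G, and 0.17 and 0.15 under the same pair of scalings. Fgl2 rose by 0.66 (SE 0.11, limma adjusted p = 0.0207), a call lost with quantile normalization, and Il6st, the shared receptor subunit gp130, fell by 0.66 (SE 0.14, limma adjusted p = 0.0317). Junb, Cebpd, Cebpb and Stat3 were not called, with log2 changes of 0.28 to 0.51.

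**Figure D4:**
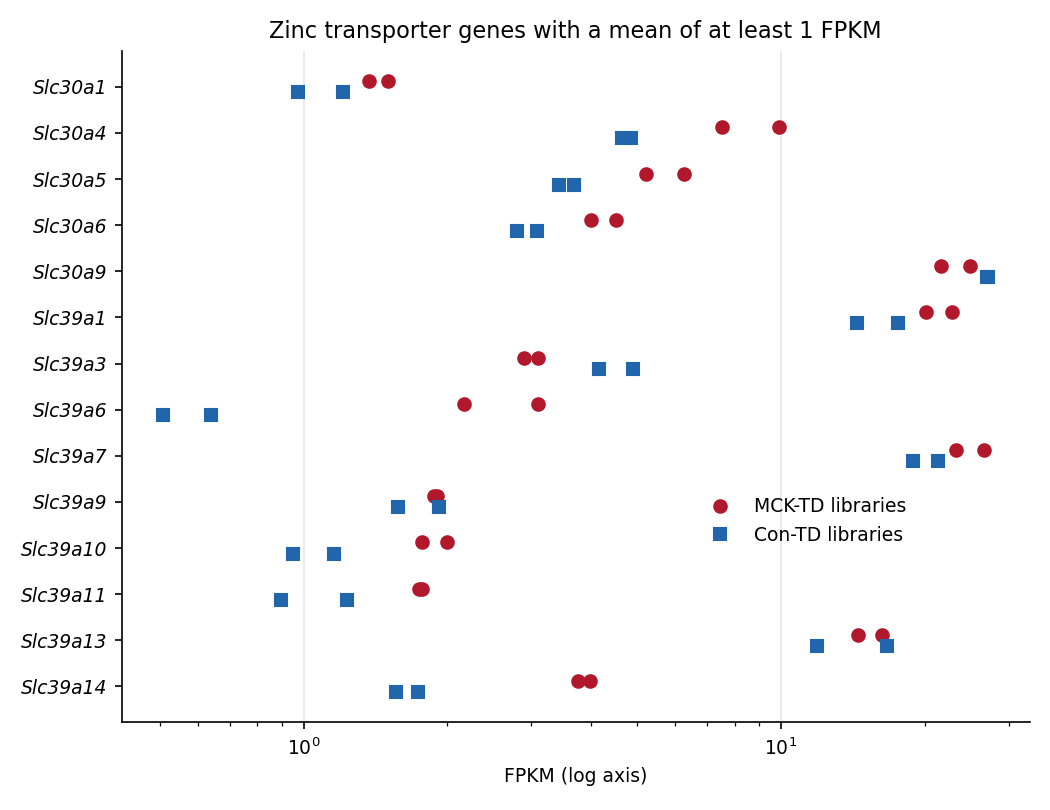
FPKM (x axis, log) of the zinc transporter genes with a mean of at least 1 FPKM, in MCK-TD libraries (red circles) and Con-TD libraries (blue squares), with Slc30a1 at the top and Slc39a14 at the bottom. The MCK-TD points lie to the right for most genes, and to the left for Slc30a9 and Slc39a3.

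The other zinc transporters form 2 families, SLC30 proteins, most of which move zinc out of the cytosol, and SLC39 proteins that move it in. Of 22 listed genes besides Slc30a1 and Slc39a14, 12 had a mean of at least 1 FPKM and were tested, 3 rose and 0 fell, and the median log2 change was 0.41 against 0.22 over all rows. At an unadjusted p under 0.05, limma gave 6 higher and 1 lower, where 5659 of the 12474 rows were under it in either direction. Called genes made up 25.0% of those tested, where 30.8% of all rows were called. The median was 0.19 after median of ratios scaling, 0.12 after quantile normalization and 0.094 without a filter. Slc39a6, an importer of the plasma membrane, rose to 2.16 and 3.10 FPKM in MCK-TD A and B, against 0.507 and 0.641 FPKM in Con-TD F and G (log2 change 1.19, SE 0.20, limma adjusted p = 0.0203). Slc30a4, a vesicular transporter, rose to 7.54 and 9.90 FPKM in MCK-TD A and B, against 4.86 and 4.64 FPKM in Con-TD F and G (log2 change 0.75, SE 0.16, limma adjusted p = 0.0326). Slc30a5, a transporter of the early secretory pathway, rose by 0.56 (SE 0.13, limma adjusted p = 0.0423). Under quantile normalization, as under median of ratios scaling, Slc39a6 kept its call, Slc30a4 and Slc30a5 lost theirs, and the list stood at 1 higher and 2 lower.

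On the values as deposited, the most abundant zinc transporters were among those not called. Slc30a9 was at 21.7 and 24.9 FPKM in MCK-TD A and B, against 27.2 and 27.0 FPKM in Con-TD F and G (limma adjusted p = 0.214). Slc39a7, which releases zinc from the endoplasmic reticulum and Golgi, was at 26.6 and 23.3 FPKM in MCK-TD A and B, against 21.4 and 18.9 FPKM in Con-TD F and G (limma adjusted p = 0.146). Slc39a1 had a log2 change of 0.41 and Slc39a13 one of 0.12. The 10 genes under a mean of 1 FPKM included the pancreatic islet transporter Slc30a8 and the intestinal importer Slc39a4, and Slc30a10 and Slc39a5 were listed at 0 in all 4 libraries. Slc39a14 was therefore well below the leading importers in level in both groups, and its log2 change of 0.88 was exceeded among the tested importers by Slc39a6.

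Genes linked to MTF1 in earlier work, beside the metallothioneins and Slc30a1, moved in both directions. Of 6 tested 2 rose and 1 fell, where 24.3% of all rows were called higher and 6.45% lower. The median log2 change was 0.14 and its sign was not stable: it was -0.044 after median of ratios scaling, -0.13 after quantile normalization, -0.033 without a filter and 0.68 at a mean of at least 5 FPKM. It was 0.044 without Con-TD F and 0.25 without Con-TD G. Slc40a1, ferroportin, the iron exporter, rose to 26.7 and 20.6 FPKM in MCK-TD A and B, against 7.54 and 5.91 FPKM in Con-TD F and G (log2 change 1.67, SE 0.19, limma adjusted p = 0.0110). Gclc, the catalytic subunit of glutathione synthesis, rose to 7.97 and 11.4 FPKM in MCK-TD A and B, against 2.29 and 2.92 FPKM in Con-TD F and G (log2 change 1.55, SE 0.21, limma adjusted p = 0.0141). Sepw1, selenoprotein W, an abundant muscle transcript, fell to 803 and 747 FPKM in MCK-TD A and B, against 1731 and 1664 FPKM in Con-TD F and G (limma adjusted p = 0.00886). Csrp1, Ndrg1 and the importer Slc39a10 were not called, with log2 changes of -0.20, -0.25 and 0.49. As background, NRF2 is also known to induce both genes that rose, and macrophages express Slc40a1. Whether MTF1, NRF2 or macrophages had a part in these changes was not tested.

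Copper is the other main metal that metallothioneins bind. Of 11 copper-handling genes tested 4 rose and 1 fell, which is 45.5% called against 30.8% of all rows. Their median log2 change was 0.38, but 0.12 after median of ratios scaling and 0.18 after quantile normalization. Cox19, of copper delivery to cytochrome oxidase, rose to 62.0 and 52.3 FPKM in MCK-TD A and B, against 18.3 and 21.9 FPKM in Con-TD F and G (log2 change 1.46, SE 0.15, limma adjusted p = 0.00994). Atox1, the chaperone of the copper pumps, rose to 73.9 and 67.7 FPKM in MCK-TD A and B, against 34.0 and 43.6 FPKM in Con-TD F and G (limma adjusted p = 0.0243). Slc31a1, the copper importer, rose by 0.66 on the log2 scale (SE 0.11, limma adjusted p = 0.0208), and Cox11 by 0.48 (SE 0.11, limma adjusted p = 0.0355). Cp, ceruloplasmin, fell to 2.01 and 2.33 FPKM in MCK-TD A and B, against 4.71 and 4.35 FPKM in Con-TD F and G (limma adjusted p = 0.0185). Slc31a1 and Cox11 lost their calls with median of ratios scaling, and Atox1 too with quantile normalization. Sod1, Cox17, Commd1 and Ccs were not called, with log2 changes of 0.14 to 0.38.

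Iron is carried by SLC39A14 beside zinc. Of 16 iron-handling genes tested 4 rose and 2 fell, which is 37.5% called against 30.8% of all rows. Their median log2 change was 0.19, but -0.033 after median of ratios scaling and -0.11 after quantile normalization. Besides Slc40a1, those that rose were the heme-degrading Hmox1 (log2 change 3.01, SE 0.26) and the ferritin chains Fth1 and Ftl1. Fth1 was at 4461 and 3500 FPKM in MCK-TD A and B, against 1672 and 1586 FPKM in Con-TD F and G (limma adjusted p = 0.0128). Ftl1 was at 119 and 135 FPKM in MCK-TD A and B, against 56.9 and 71.5 FPKM in Con-TD F and G (limma adjusted p = 0.0186). Hfe2, the muscle gene of hemojuvelin, fell to 157 and 141 FPKM in MCK-TD A and B, against 265 and 253 FPKM in Con-TD F and G (limma adjusted p = 0.0141), and the ferrireductase Steap3 fell by 0.88 on the log2 scale (SE 0.13). Tfrc, the transferrin receptor, was at 74.2 and 50.2 FPKM in MCK-TD A and B, against 32.6 and 37.6 FPKM in Con-TD F and G, without a call (limma adjusted p = 0.0624). Pcbp1, Ncoa4 and Slc25a28 were not called either. All calls in the lists of zinc, MTF1, copper, iron, glucocorticoid and interleukin-6 genes were lost whichever library was left out, when 62 to 162 rows of the whole table were called.

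The profiles most like those of the metallothioneins were found by Euclidean distance between log2(FPKM + 1) values, centred on each gene's mean over the 4 libraries. For Mt1 the nearest were Vprbp (distance 0.229), Haus8 (0.302) and Snhg9 (0.304). For Mt2 they were Krt18 (0.352), Haus8 and Aif1. Each of these was highest in the MCK-TD libraries and lowest in Con-TD G, as in Haus8 at 4.61 and 4.35 FPKM in MCK-TD A and B, against 2.55 FPKM in Con-TD F and 0.599 in Con-TD G. For Mt3 they were Lox, which encodes the collagen crosslinking enzyme lysyl oxidase (0.540), Hivep3 (0.569, 1 of the 3 rows of that symbol) and Rhod (0.768). Over 4 libraries, many genes can share a profile.

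**Figure D5:**
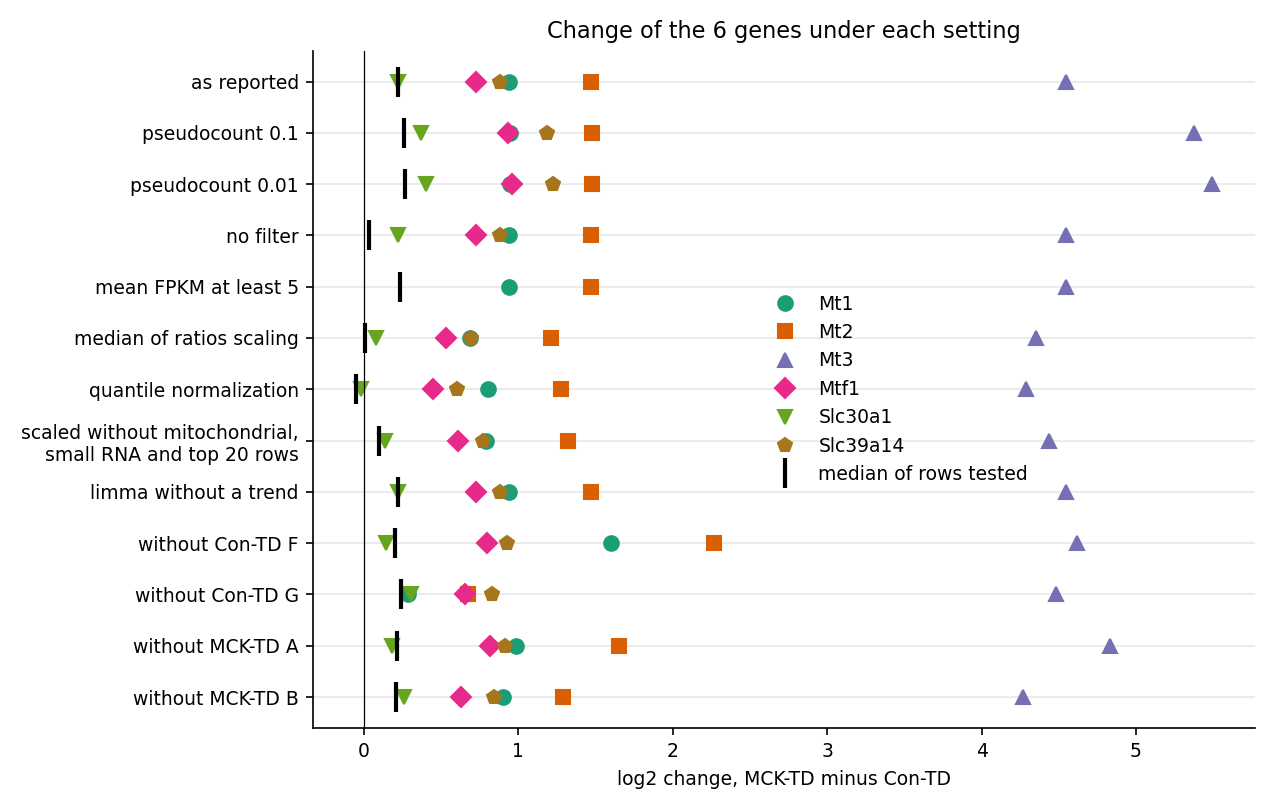
Log2 change of MCK-TD minus Con-TD (x axis) of the 6 genes as reported and under 12 other settings (rows), with the median of all rows tested as a black bar. Mt3 stays beyond 4 throughout, Mt1 and Mt2 swing with the Con-TD library left out, and Slc30a1 stays near the median of all rows.

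The scale of the whole comparison bears on the smaller changes. The median change of all rows was 0.22 as deposited, 0.01 after median of ratios scaling and -0.05 after quantile normalization. Higher calls made up 79.0% of all calls as deposited, 54.8% after median of ratios scaling and 48.8% after quantile normalization. With quantile normalization Mt3 was at 4.29, Mt2 at 1.28, Mt1 at 0.81, Slc39a14 at 0.61 and Mtf1 at 0.45. These 5 genes stood above the median of all rows in each of the 3 scalings, and Slc30a1 lay close to it.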

How the data were processed

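Total RNA of 4 muscle samples was DNase-treated, then enriched for mRNA and sequenced as single-end reads, per the labels and the design text. The authors deposited FPKM values, 1 for each gene in each library. The submitters' processing notes name STAR, Cufflinks and the build mm9, with versions, annotation and strand not given in the sources used here. Deposited notes beside gene names were not used. Raw counts and the absolute depth are unknown. The steps of low FPKM values gave depths relative to Con-TD F of 0.955 (MCK-TD A), 0.945 (MCK-TD B) and 0.934 (Con-TD G).

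Of 37305 rows, the 12474 with a mean of at least 1 FPKM were tested as log2(FPKM + 1), a scale that understates changes of low genes. Limma 3.58.1 in R 4.3.3 compared MCK-TD with Con-TD without covariates, with an intensity trend, 2 residual degrees of freedom, two-sided p-values and Benjamini-Hochberg adjustment over all rows. Fold values are ratios of group means. The fit was tested on simulated data. An exact 0 can be a failed estimate.

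The 6 genes and the gene lists were chosen with earlier results of these data known. Named from each list are up to 6 called genes with the largest change and up to 4 uncalled genes with the highest level, and for Mt1, Mt2 and Mt3 the 3 nearest profiles, without mitochondrial, small RNA, clone-named or predicted genes. Of the 6 genes, 5 had a promoter in the RefSeq table. No chromosome position of mm9 is given. Genotype and any batch that was not recorded cannot be told apart. Some results are not reported here.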

Additional observations from a re-analysis of the deposited data

How the results depend on the processing

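The 12 other settings were a pseudocount of 0.1 or 0.01, no filter, a filter at 5 FPKM, 3 scalings, limma without a trend and leaving out each library. Of the 6 genes, Slc30a1 alone changed direction, at -0.015 with quantile normalization. The changes of Mt1 and Mt2 ranged from 0.28 to 1.60 and from 0.67 to 2.27 when a library was left out. Without a filter, limma called 2043 rows in all, 0 zinc transporters, 1 copper, 3 iron, 1 glucocorticoid and 0 interleukin-6 genes. At an unadjusted p under 0.05 it gave 7 of 20 zinc transporters, 3 of 14 interleukin-6 genes and 7743 of all 25620 rows. At a mean of at least 5 FPKM it called 1 zinc transporter and 1 interleukin-6 gene. With median of ratios scaling it called 3 copper genes (2 higher, 1 lower). With quantile normalization it called 2 copper genes, 5 glucocorticoid response genes (1 higher, 4 lower) and 1 interleukin-6 gene. The scaling without mitochondrial, small RNA and the 20 most abundant other rows gave 66.3% higher calls over all rows. When a library was left out, calls over all rows ranged from 62 to 162, and those in each of the 6 lists were 0, with 2 to 9 genes of a list at an unadjusted p under 0.05. There the lone library was assumed to vary like the libraries of the other group. The causes were not tested. With 2 libraries a group, a change within the spread of Con-TD could not be resolved, and the depth is unknown. No paired analysis was possible because the labels give the groups no shared replicate numbers.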
